A study of Mus musculus with 8 samples.

Results

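Matrix metalloproteinases (MMPs), the secreted ADAMTS proteases, the ADAMTS-like glycoproteins and the tissue inhibitors of metalloproteinases (TIMPs) were examined in the lacrimal gland (LG) of calorie-restricted mice. Members were all genes of the count table whose symbol starts with Mmp, Timp, Adamts or Adamtsl followed by a digit, which gave 51 of 24552 genes. They comprised 23 Mmp, 19 Adamts, 5 Adamtsl and 4 Timp genes. Of the 51, 40 had at least 1 count, 11 had none in any library and 18 were counted often enough to be tested.

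LG RNA came from 10/11-month-old female C57BL/6J mice, 4 fed ad libitum (AL) and 4 kept on 40% calorie restriction (CR) for 4 months, started at 6 to 7 months of age. No mutation, transgene or drug was used in either group, and the labels do not say from which of the study's mouse cohorts each library came. In the cohort kept at Baylor, the CR chow held 40% more vitamins and micronutrients than the AL chow. CR mice were fed daily, shortly before the dark phase. Chow, in libraries from that cohort, and feeding time cannot be told apart from restriction. Libraries were made from the 3′ ends of polyadenylated RNA. Reads therefore start near the end of the transcript, and levels, given as CPM (counts scaled to library size with the RLE factors), were not divided by transcript length. Because these are whole glands, fewer cells of a type and less RNA per cell cannot be told apart.

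MMPs and ADAMTS proteases are zinc enzymes that cut the extracellular matrix. They are made as inactive precursors, and removal of the propeptide by furin-type convertases, plasmin or another MMP switches them on. TIMPs bind the active site and block it. Transcript level is therefore only the first of several layers of control, and neither protein nor activity was measured here. In the LG, these enzymes have been studied in duct and acinus remodelling, in wound repair and in the matrix loss that goes with inflammation.

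Total counts per library ranged from 12051881 to 22156511, and 3 counts, taken as the floor, corresponded to between 0.152 and 0.231 CPM. The 8 lacrimal epithelial markers checked, including the water channel Aqp5 and the transcription factor Pax6, were all tested. Their summed level was 504 to 541 CPM in AL and 624 to 705 CPM in CR, without overlap. Sox9 made the largest part, with means of 184 CPM in AL and 239 CPM in CR. Whether parotid tissue, described below, added to this sum was not tested. None of the 8 markers was called by edgeR, and 3 had an unadjusted p under 0.05. DESeq2 called 2 and limma-voom, run with library quality weights throughout, called 1. Pax6 alone of the 8 had a log2 fold change below 0, at -0.68, with 67.7 ± 16.8 CPM in AL and 42.2 ± 22.8 CPM in CR (SD, n = 4). Transcripts abundant in the neighbouring parotid salivary gland were also present. Their summed level was 12014 to 41176 CPM in AL and 54385 to 297509 CPM in CR, and it was lowest in replicate 4 of each diet. All 7 parotid transcripts had an unadjusted p under 0.05. EdgeR called 3 of them higher, limma-voom 3 and DESeq2 all 7. The part of parotid tissue in the differences below was not tested. The mean log2 CPM of the parotid transcripts, used below as a covariate, was 2.12 to 7.92 in AL and 10.0 to 13.4 in CR. The diets did not overlap in it, so a fit with it cannot separate parotid level from diet. Values without both replicates 4 are given where they change a call. Summed levels of other cell markers are given after the members, and those of macrophages and neutrophils also beside Mmp12 and Mmp9.

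The genes for Mmp13, Mmp12, Mmp1b, Mmp3, Mmp1a, Mmp10, Mmp8, Mmp27, Mmp20 and Mmp7 form a cluster on mouse chromosome 9, from 7272514 to 7699585 in GRCm38 (mm10), a span of 427072 bases. Of these 10 genes, 6 had counts and only Mmp3 and Mmp12 were tested. The AP-1 motif TGAGTCA, or its reverse complement TGACTCA, is the site through which Fos and Jun proteins are known to drive MMP genes. It was searched on both strands in the 250 bases upstream of the RefSeq starts of GRCm38.p6. It was found in 7 of the 36 members with a promoter entry, and all 7 were in this cluster. None of the 26 other members with an entry held it, while 4.46% of all 32851 promoters did. The ETS-type motif AGGAAG was in 13 of the 36, against 29.5% of all promoters, the TATA box TATAAA in 10, against 12.4%, and the E-box CACGTG in 2, against 6.02%, each searched on both strands. Adamts5, Adamts15 and Mmp9 had no entry. The final 100 bases before the start of 6 of the 7 are shown 5′ to 3′, to set the 2 genes that were counted often enough to be tested beside those that were rarely or never counted. All 6 lie on the plus strand and capitals mark the AP-1 motif. The window of Mmp1b overlaps an annotated exon and is not shown. RefSeq lists 2 starts for Mmp12. The window shown precedes the internal one, at 7347374, and the window before the start beside the GENCODE one, from 7344147 to 7344396, holds no AP-1 motif.
Mmp3 (chr9:7445722-7445821): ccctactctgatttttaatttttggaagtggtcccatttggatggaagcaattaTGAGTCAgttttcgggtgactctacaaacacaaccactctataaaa
Mmp12 (chr9:7347274-7347373): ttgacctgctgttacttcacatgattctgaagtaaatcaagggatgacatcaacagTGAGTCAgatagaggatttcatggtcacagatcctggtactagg
Mmp13 (chr9:7272414-7272513): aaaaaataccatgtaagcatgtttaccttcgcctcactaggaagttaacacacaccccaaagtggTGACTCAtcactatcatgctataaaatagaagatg
Mmp10 (chr9:7502242-7502341): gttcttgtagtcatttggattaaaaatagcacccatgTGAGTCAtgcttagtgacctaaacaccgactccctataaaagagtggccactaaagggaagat
Mmp1a (chr9:7464041-7464140): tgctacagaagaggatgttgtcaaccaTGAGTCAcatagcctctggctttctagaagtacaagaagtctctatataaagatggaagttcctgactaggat
Mmp7 (chr9:7691990-7692089): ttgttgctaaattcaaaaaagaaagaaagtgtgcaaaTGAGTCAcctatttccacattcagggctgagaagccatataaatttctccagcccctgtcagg
The motif began 46 bases before the start in Mmp3, 44 in Mmp12, 35 in Mmp13, 63 in Mmp10 and Mmp7, and 73 in Mmp1a. Genes that hold it ranged from counted in every library to never counted. Mmp3 and Mmp12 were counted in every library, Mmp13, a collagenase, had 30 counts in all libraries together, and Mmp10, Mmp1a, Mmp1b and Mmp7 had none.

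CR was then compared with AL to ask whether 4 months of restriction changed the transcripts of the matrix-degrading enzymes and their inhibitors. Of the 18 tested members, 2 were lower in CR, Mmp3 and Adamts5, and 0 were higher. Calls rest on the quasi-likelihood F test of edgeR, adjusted by Benjamini-Hochberg over all 11211 tested genes, and needed both an adjusted p below 0.05 and a change of 1.5-fold or more. The same rule called 0.785% of all tested genes lower and 1.20% higher. DESeq2 called 5 members lower, limma-voom called 3, and both called 0 higher. Of all tested genes, they called 2.83% and 1.43% lower, and 3.43% and 2.11% higher. At an unadjusted p under 0.05, 6 members were lower and 3 were higher, against 8.10% and 8.62% of all tested genes. The log2 fold changes of the 18 ranged from -1.85 to 1.32 with a median of -0.37, whereas the median of all tested genes was 0.01. They were below 0 in 12 of the 18, against 48.9% of all tested genes.

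In 6 of the 18 tested members every CR library lay below every AL library, as in 5.20% of all tested genes. These were Mmp3, Mmp12, Mmp9, Adamts5, Adamts15 and Adamts12, the same 6 as at an unadjusted p under 0.05. In 1 tested member, Adamtsl4, all CR libraries exceeded all AL libraries, as in 4.58% of all tested genes. The 6 lower genes include 3 MMPs and 3 ADAMTS proteases, and no TIMP. Without AL replicate 4 and CR replicate 4, a choice made after seeing the data, 4 members were called lower, Mmp3, Adamts5, Mmp12 and Adamts15, where the same fit called 2.16% of all tested genes lower.

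**Figure D1:**
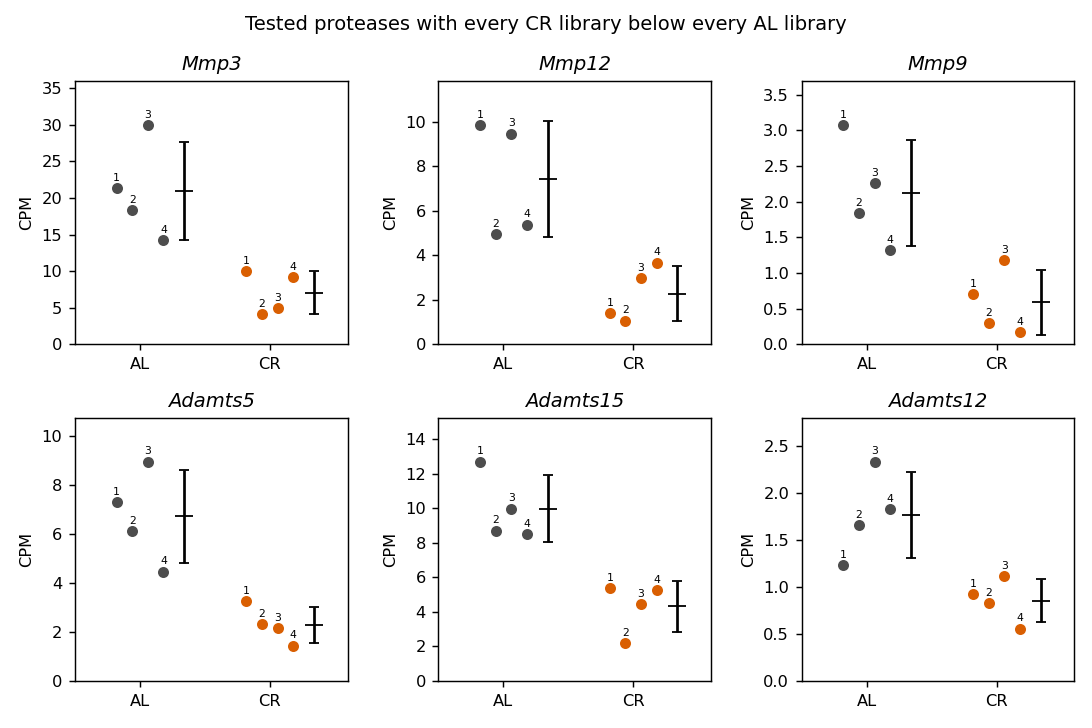
CPM of the 6 tested proteases in which the libraries of the diets did not overlap, one point per library labelled by its replicate number, with mean and SD (n = 4) beside each diet, and linear axes that start at 0. Every CR point lies below every AL point in all 6 panels, and Mmp3 and Adamts5 passed the adjusted threshold.

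Mmp3, stromelysin-1, cuts proteoglycans, fibronectin and several collagens and can activate other MMPs. The gene lies on chromosome 9 at 7445822 to 7455975. Its level was 21.3, 18.3, 30.0 and 14.2 CPM in AL replicates 1 to 4, and 9.96, 4.08, 4.95 and 9.15 CPM in CR replicates 1 to 4. The diets did not overlap, and CR replicates 2 and 3 were the lowest of all libraries. The mean fell from 21.0 ± 6.70 CPM to 7.04 ± 2.95 CPM (SD, n = 4), a log2 fold change of -1.57 with a standard error of 0.32 and an adjusted p of 0.0326 in edgeR. Mmp3 made up 29.0 to 38.0% of the summed MMP level in AL and 9.70 to 23.6% in CR, and these ranges did not overlap.

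The call on Mmp3 was lost when any of AL replicates 1 to 3 or either of CR replicates 2 and 3 was left out, where edgeR's adjusted p ranged from 0.0772 to 0.109, although the log2 fold change stayed between -1.78 and -1.35 whichever library was left out. With the mean log2 CPM of the parotid transcripts as a covariate it was -1.95 with an adjusted p of 0.314. Over all alternatives its adjusted p ranged from 0.000283 to 0.314.

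Mmp12, macrophage metalloelastase, degrades elastin and is made mainly by macrophages. Its level was 9.85, 4.96, 9.46 and 5.37 CPM in AL, and 1.41, 1.06, 2.97 and 3.66 CPM in CR. The AL libraries fell into a higher and a lower pair, and the lowest of them was still above the highest CR library. The means of 7.41 ± 2.60 CPM in AL and 2.28 ± 1.24 CPM in CR (SD, n = 4) gave a log2 fold change of -1.69 with a standard error of 0.41 and an edgeR adjusted p of 0.0594, just outside the threshold. Limma-voom with library quality weights gave an adjusted p of 0.0537, also outside it. It passed under DESeq2, at an adjusted p of 0.00308, without the filter on low counts, at 0.0219, without CR replicate 4, at 0.0143, and without both replicates 4, at 0.0111. Over all alternatives its adjusted p ranged from 0.00308 to 0.435. The exons of Mmp12 overlap those of Mmp1b, which lies on the opposite strand and had 0 counts. The summed macrophage markers were at 104.5 to 273 CPM in AL and 64.1 to 114 CPM in CR, and their part in the Mmp12 difference was not tested.

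The other stromelysins were Mmp10 and Mmp11. Mmp11, whose exons overlap Chchd10 on the opposite strand, had a log2 fold change of 1.17 with a standard error of 0.61, and it was not called. Mmp10 had no counts.

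Mmp9 and Mmp2 are the gelatinases, which cut denatured collagen and the type IV collagen of basement membranes. Mmp9 lies on chromosome 2 at 164940780 to 164955850. Its level was 3.08, 1.84, 2.26 and 1.32 CPM in AL, and 0.707, 0.296, 1.18 and 0.166 CPM in CR. The diets did not overlap. These are 26 to 40 counts per AL library and 3 to 19 per CR library, so counting error alone is large. The log2 fold change was -1.85 with a standard error of 0.60 and an edgeR adjusted p of 0.134, and it ranged from -2.44 to -1.53 with each library left out. It was not called, and DESeq2 gave an adjusted p of 0.0367. The summed markers of neutrophils, cells known to store MMP9, were at 0.55 to 1.62 CPM in AL and 0.59 to 1.83 CPM in CR. None of these markers was counted often enough to be tested, and Cxcr2 and Ly6g were at 0. Retnlg was at 0.27 CPM in AL and 0.81 CPM in CR on average. Csf3r was at 0.54 and 0.16 CPM, and S100a8 and S100a9 were also lower in CR.

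Mmp2, the gelatinase made by many stromal cells, was tested in the same way. Its level was 3.77, 7.54, 10.0 and 7.25 CPM in AL, and 6.29, 7.28, 9.34 and 7.93 CPM in CR. The CR libraries all lay within the AL range, with AL replicate 1 the lowest library. The log2 fold change was 0.11 with a standard error of 0.29, and its direction changed to -0.09 without AL replicate 1.

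Of the membrane-anchored MMPs, Mmp14 and Mmp15 were tested. Mmp14, which activates the Mmp2 precursor on the cell surface together with Timp2, was at 10.7, 11.0, 20.9 and 12.6 CPM in AL and at 14.1, 9.52, 14.5 and 10.4 CPM in CR. AL replicate 3 was highest. The log2 fold change of -0.18 with a standard error of 0.25 did not pass, and it became 0.08 without AL replicate 3.

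Mmp15 was at 5.08, 1.96, 5.10 and 3.40 CPM in AL and at 5.44, 13.7, 10.8 and 3.94 CPM in CR. The CR libraries split, with replicates 2 and 3 high and replicates 1 and 4 near the AL level. Its log2 fold change was 1.13 with a standard error of 0.42 and an edgeR adjusted p of 0.188. With the parotid covariate it was 0.13.

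Mmp19 is a secreted MMP outside these groups. Its log2 fold change was -0.40 with a standard error of 0.44, the diets overlapped, and it was 0.71 with the parotid covariate.

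Proteases of the proteoglycan-cleaving group, Adamts1, Adamts4, Adamts5, Adamts8, Adamts9, Adamts15 and Adamts20, cut aggrecan and versican. Of these 7, 3 were tested and 1, Adamts5, was called lower. Adamts5 was at 7.31, 6.13, 8.95 and 4.46 CPM in AL and at 3.25, 2.31, 2.16 and 1.44 CPM in CR. The diets did not overlap. The fall from 6.71 ± 1.90 to 2.29 ± 0.743 CPM (SD, n = 4) was a log2 fold change of -1.55 with a standard error of 0.33 and an edgeR adjusted p of 0.0344. The gene lies on the minus strand of chromosome 16 at 85856173 to 85901828, next to Adamts1 at 85793827 to 85803113.

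The call on Adamts5 was lost with the same 5 libraries left out singly, at edgeR adjusted p of 0.0888 to 0.116, while the log2 fold change stayed between -1.75 and -1.38 whichever library was left out. With the parotid covariate the log2 fold change was -2.56 and the adjusted p 0.231. Over all alternatives the adjusted p ranged from 0.000692 to 0.231.

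Adamts15 lies next to Adamts8 on chromosome 9, on the minus strand at 30899155 to 30922452. Its level was 12.7, 8.70, 9.97 and 8.51 CPM in AL and 5.37, 2.19, 4.45 and 5.27 CPM in CR. CR replicate 2 was the lowest library. The log2 fold change was -1.20 with a standard error of 0.29, and the edgeR adjusted p of 0.0593 missed the threshold. DESeq2 gave 0.00554 and limma-voom gave 0.0333. EdgeR gave 0.0312 without the filter on low counts, 0.0296 without CR replicate 4 and 0.0314 without both replicates 4. Over all alternatives its adjusted p ranged from 0.00554 to 0.430.

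Adamts1, the neighbour of Adamts5, had a log2 fold change of -0.08 with a standard error of 0.47, and its direction changed in several alternatives. Whether it differed from Adamts5 was not tested. Adamts8 had 1 count in all libraries together, in CR, and Adamts20 had none.

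Adamts12, which cuts cartilage oligomeric matrix protein, was at 1.23, 1.65, 2.33 and 1.82 CPM in AL and at 0.919, 0.828, 1.11 and 0.555 CPM in CR, from 10 to 36 counts per library. CR replicate 4 was the lowest. The log2 fold change of -1.04 with a standard error of 0.44 had an unadjusted p of 0.0356 and an adjusted p of 0.253 in edgeR. Adamts10, which acts on fibrillin microfibrils, had -0.85 with a standard error of 0.54, and Adamts2, a procollagen N-proteinase, had -0.34 with a standard error of 0.42. All 6 tested ADAMTS proteases had a log2 fold change below 0, with a median of -0.94, though Adamts1 turned positive with the parotid covariate and when replicate 2 of either diet or CR replicate 4 was left out.

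The ADAMTS-like proteins lack the protease domain and bind fibrillin and other matrix proteins. Adamtsl4 was at 1.15, 0.674, 0.364 and 1.42 CPM in AL and at 2.12, 3.13, 2.41 and 1.498 CPM in CR. The diets did not overlap, though AL replicate 4 and CR replicate 4 nearly met. Its log2 fold change was 1.32 with a standard error of 0.49 and an edgeR adjusted p of 0.185, so it was not called. Adamtsl1 was at 5.46, 6.56, 5.61 and 3.70 CPM in AL and at 7.98, 6.21, 4.95 and 5.44 CPM in CR, with a log2 fold change of 0.21 that became -0.46 with the parotid covariate.

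**Figure D2:**
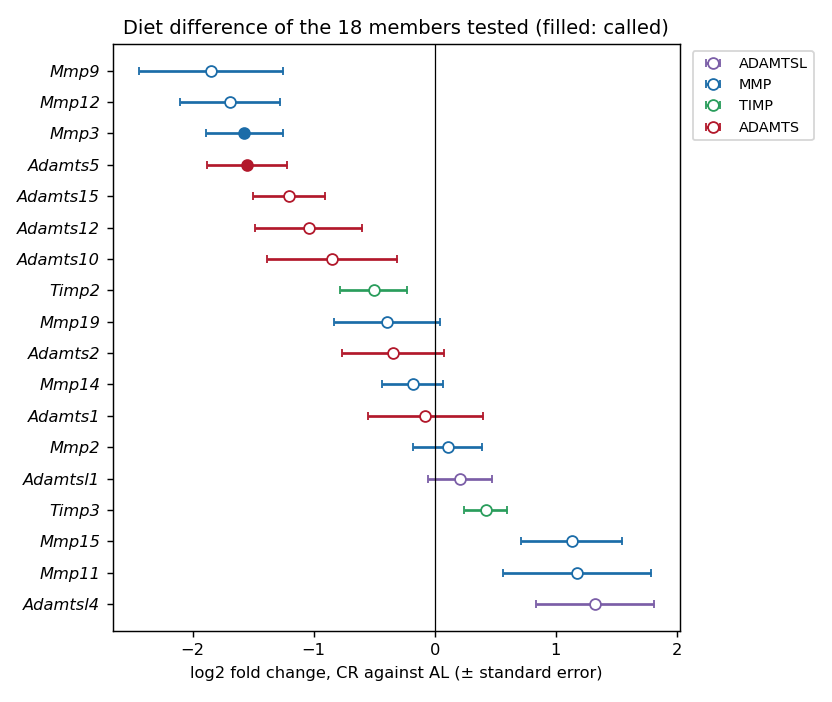
Log2 fold change of CR against AL, with its standard error, for each of the 18 tested members, coloured by family, with filled points for the 2 called. Most points lie left of 0, including all 6 ADAMTS proteases, of which Adamts1 lies close to 0 and changed sign in several alternatives, and Mmp2, Adamtsl1, Timp3, Mmp15, Mmp11 and Adamtsl4 lie to its right.

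Of the inhibitors, Timp2 and Timp3 were tested. Timp2 was at 164, 165, 289.8 and 126 CPM in AL and at 174, 105, 151 and 95.4 CPM in CR. AL replicate 3 stood above the rest and the diets overlapped. Timp2 and Timp3 together made up 68.5 to 73.4% of the summed member level in AL and 71.8 to 76.1% in CR. Timp2 had a log2 fold change of -0.50 with a standard error of 0.28 and an edgeR adjusted p of 0.406. It was -0.21 without AL replicate 3 and -1.13 with the parotid covariate.

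Timp3, which is bound to the matrix and also inhibits ADAMTS proteases and ADAM17, was at 34.1, 37.4, 48.6 and 41.7 CPM in AL and at 42.7, 58.6, 54.6 and 60.7 CPM in CR. CR replicate 1 lay within the AL range and the other 3 lay above it. The log2 fold change was 0.42 with a standard error of 0.18, an unadjusted p of 0.0346 and an adjusted p of 0.249 in edgeR. Timp3 had the smallest spread between libraries of the 18 in each diet, with a coefficient of variation of 15.5% in AL and 14.8% in CR. Its exons overlap the opposite-strand gene Syn3.

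Timp2 per Timp3 was 3.03 to 5.96 in AL and 1.57 to 4.06 in CR, with overlapping ranges. The summed TIMP level per summed MMP level was 3.44 to 4.12 in AL and 3.85 to 5.15 in CR, again with overlap. The summed ADAMTS protease level was 22.0 to 33.4 CPM in AL and 10.00 to 17.2 CPM in CR, with no overlap. Its largest members in AL were Adamts15 and Adamts5, with means of 9.97 and 6.71 CPM, which did not overlap themselves. The gap in the sum is therefore not separate from theirs. The summed MMP level overlapped, at 48.9 to 82.2 CPM in AL and 40.4 to 51.0 CPM in CR.

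**Figure D3:**
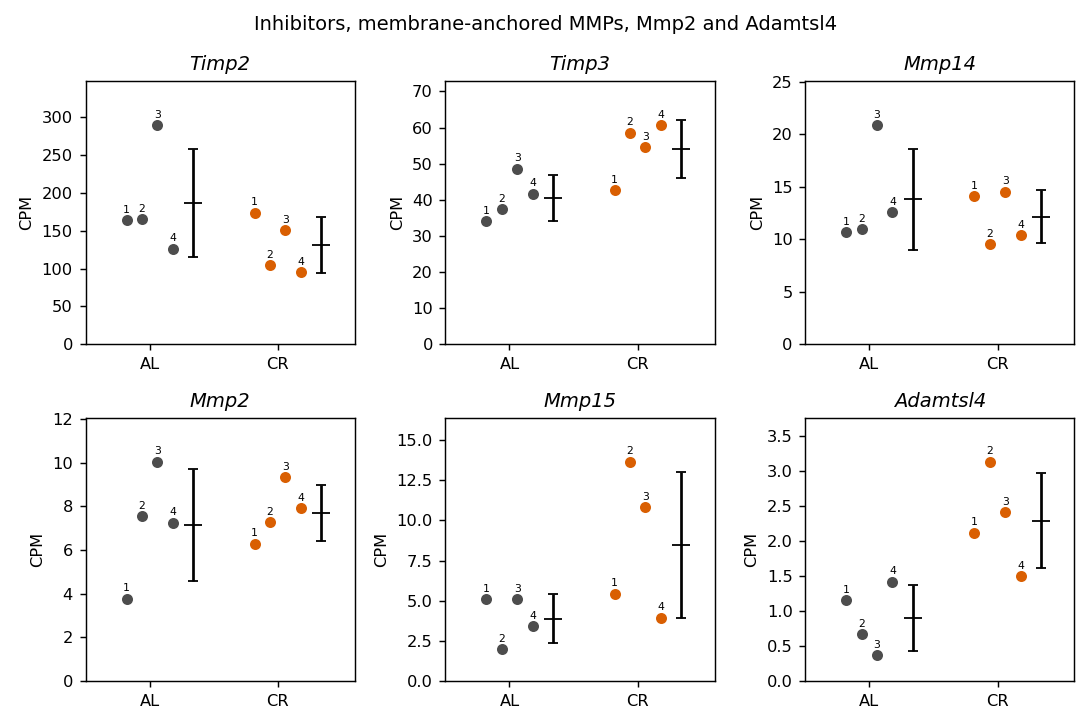
CPM per library, labelled by replicate, with mean and SD (n = 4) for Timp2, Timp3, Mmp14, Mmp2, Mmp15 and Adamtsl4, on linear axes from 0. The libraries of the diets overlap in all panels but Adamtsl4, and none of the 6 passed the adjusted threshold.

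The 22 members that were counted but not tested had between 1 and 66 counts in all libraries together and at most 1.41 CPM in any library. Mmp23 had 7, 15, 0 and 8 counts in AL and 20, 3, 11 and 2 in CR. Mmp27 had 0, 5, 15 and 1 counts in AL and 0, 1, 0 and 3 in CR, so AL replicate 3 held most of them. Neither gives a direction at this depth. Timp1, the inducible inhibitor, had 0, 3, 1 and 4 counts in AL and 2, 0, 0 and 0 in CR. Timp4 had no counts in AL and 6, 3, 6 and 0 in CR, and it lies on the opposite strand from Syn2. Mmp25 had 1, 5, 12 and 4 counts in AL and 0, 0, 0 and 1 in CR, so the lowest AL and the highest CR library held the same single count. Of the 22, 2 were counted in AL only, Adamts3 and Adamts7, and 4 in CR only, Adamts8, Mmp20, Mmp21 and Timp4. A count of 0 in a library allows a level up to its floor of 0.152 to 0.231 CPM.

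**Figure D4:**
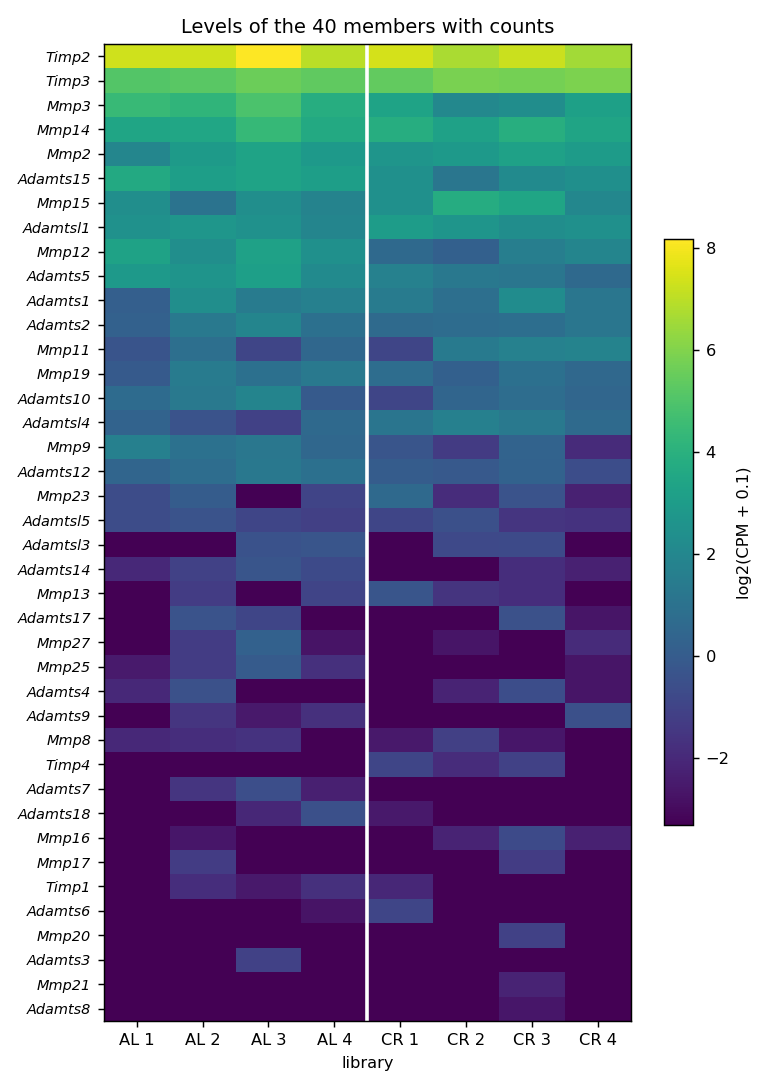
Level of each of the 40 members with counts in each library, as log2 of CPM plus 0.1, with members in order of mean CPM and a white line between the diets. Timp2 and Timp3 are at the top in all 8 libraries, and the lower part of the map is made of members with few counts scattered over single libraries.

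Of the genes that act with these proteases, few were called. Among 11 ADAM proteases, 8 were tested and 0 were called in either direction with edgeR, with 1 at an unadjusted p under 0.05. That one, Adam28, a protease of lymphoid and epithelial cells, lay just outside the threshold, with 7.72 to 13.4 CPM in AL, 2.19 to 6.60 CPM in CR and an edgeR adjusted p of 0.0504, and it was called lower by DESeq2 and limma-voom. Adam17, the shedding enzyme that Timp3 inhibits, had a log2 fold change of -0.68 and overlapping libraries. Of 11 genes of the plasminogen system and convertases, 4 were tested and 0 called, again with 1 at an unadjusted p under 0.05, and Plg had no counts. DESeq2 and limma-voom also called 0. Of 8 other inhibitors, clearance receptors and inducers, 4 were tested and 1 was called higher, against 1.20% of all tested genes. That was Cd44, a hyaluronan receptor that can hold MMP9 at the cell surface, which rose from 5.02 ± 2.11 to 14.7 ± 5.38 CPM (SD, n = 4), with a log2 fold change of 1.54 and an edgeR adjusted p of 0.0467. Of 17 cytokines and AP-1 factors, 9 were tested and 0 called, with 3 at an unadjusted p under 0.05. DESeq2 called 1, Fosl2, higher and limma-voom 0, and Il6 and Fosl1 had no counts.

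Among the matrix proteins that these enzymes cut, several collagen genes fell. Of 28 substrates, 21 were tested, 19 had a log2 fold change below 0 and 4 were called lower, against the 0.785% above. The median log2 fold change was -0.78. Those called were the fibrillar collagen genes Col1a1, Col3a1 and Col5a1 and the microfibril gene Fbn1. DESeq2 called 6 lower, with Fn1 and Col5a3 besides, and limma-voom called 5, with Col5a3 besides. Col3a1 was lowest relative to AL, at 36.5 ± 9.72 CPM in AL and 5.27 ± 1.15 CPM in CR (SD, n = 4), a log2 fold change of -2.79. Acan, Ncan and Bcan, substrates of the proteoglycan-cleaving group, had no counts. Vcan, the versican gene, was at 2.001 to 3.19 CPM in AL and 0.71 to 2.35 CPM in CR, with overlap.

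Markers of stromal and immune cells, known sources of these proteases, were compared between the diets. All 10 macrophage markers were tested and had a log2 fold change below 0, with a median of -0.91, 7 of them at an unadjusted p under 0.05. EdgeR and limma-voom called Lyz2 lower, and DESeq2 called Lyz2 and Adgre1 lower. Their sums, given beside Mmp12, overlapped between the diets. AL replicate 3 had the highest sum and also the highest Mmp3, Adamts5, Adamts2, Adamts10, Adamts12, Mmp2, Mmp14 and Timp2. Mmp12, Mmp9 and Adamts15 were instead highest in AL replicate 1, the AL library with the lowest sum. Of the 10 fibroblast markers, 8 had a log2 fold change below 0, with a median of -0.79, and edgeR called 0, while at an unadjusted p below 0.05 there were 3 lower and 1 higher. DESeq2 called 2, Clec3b and Dpt, lower and limma-voom 0. Their sum was 143 to 220.5 CPM in AL and 146 to 216 CPM in CR, of which Gsn made the largest part, with means of 123 and 104 CPM. Ly6a, which did not pass the adjusted threshold, was at 15.2 and 47.3 CPM on average. The sum of smooth muscle, pericyte and myoepithelial markers was 80.3 to 120 CPM in AL and 39.2 to 79.8 CPM in CR, so the diets nearly met. Of the 6 tested, 4 had a log2 fold change below 0 and 0 were called. The 2 above 0 were Rgs5 at 0.21 and Notch3 at 0.47. Mast cell markers were at 15.0 to 26.6 CPM in AL and 8.58 to 13.4 CPM in CR. B and T cell markers were at 1.42 to 12.0 CPM in AL and 0.141 to 1.86 CPM in CR. Endothelial markers were at 17.99 to 28.8 CPM in AL and 25.5 to 33.4 CPM in CR. White adipocyte markers were at 50.3 to 61.7 CPM in AL and 63.5 to 193 CPM in CR, with Fabp4 and Pnpla2 called higher. Schwann cell and nerve markers were at 27.7 to 38.2 CPM in AL and 39.5 to 106 CPM in CR, with Sox10 called higher. Sox10 made the largest part of that sum, with means of 15.3 CPM in AL and 67.1 CPM in CR. Of the 6 markers, 5 had a log2 fold change above 0, and Mbp, at 14.3 and 12.6 CPM on average, had one below. The part of these cells in the differences above was not tested.

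**Figure D5:**
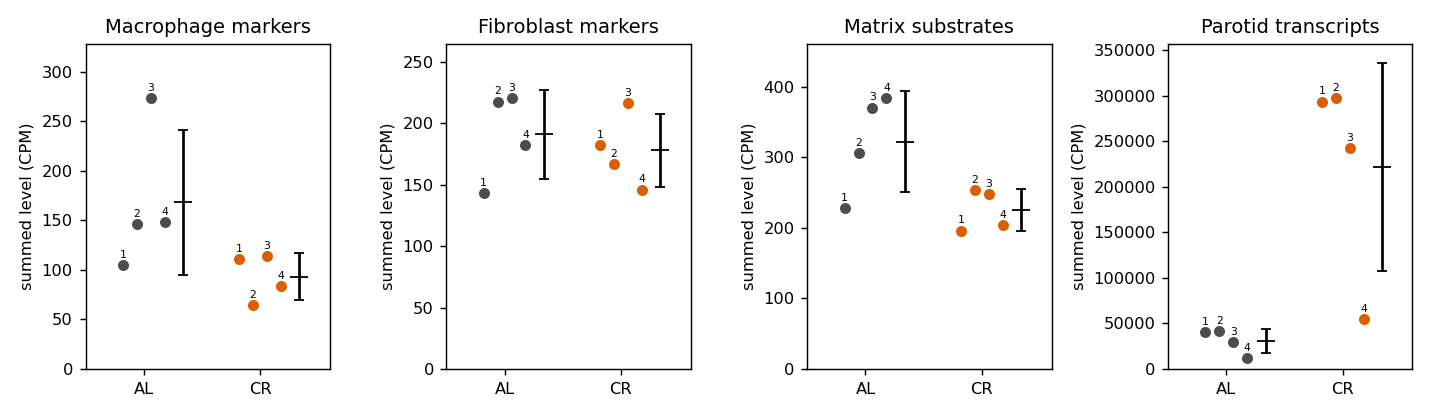
Summed CPM per library, labelled by replicate, with mean and SD (n = 4) for the macrophage markers, the fibroblast markers, the matrix substrates and the parotid transcripts, on linear axes from 0. The fibroblast sums overlap almost fully, although 8 of their 10 markers had a log2 fold change below 0, and the parotid sums are higher in every CR library.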

How the data were processed

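Sequencing of 3′ ends was done on LG RNA from 4 AL and 4 CR mice. The authors deposited gene counts, made with cutadapt, STAR on mm10 and HTSeq, whose versions and strand setting are not given in the sources used here. The deposited log2 values were the authors' RLE-normalised counts and were not used. Per-gene counts were kept for 24552 of 24557 genes, since 5 repeated symbols were dropped. Of these, 16735 had counts and 11211 passed filterByExpr. The 51 members, the role, pathway and marker lists and the naming rule were chosen with earlier results of these data known.

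Counts were fitted with edgeR 4.0.16 in R 4.3.3 (RLE factors, full library sizes, quasi-likelihood F test, Benjamini-Hochberg adjustment over all 11211 genes), and genes were called below an adjusted p of 0.05 when changed 1.5-fold or more. CPM was scaled by the RLE factors. Standard errors were obtained by dividing the log2 fold change by F's square root. The biological coefficient of variation was 34.7%. Named members were those called, those at an unadjusted p under 0.05, 4 the study names, the 10 with the highest mean CPM, all TIMPs, and untested ones above 1 CPM in a library. Mmp11, Mmp13, Mmp16, Mmp17, Mmp19, Mmp20, Mmp21, Mmp25, Adamts1, Adamts2, Adamts3, Adamts6 to Adamts10, Adamts17, Adamts18 and, of the other lists, Adam17, Adam28, Vcan, Fosl2, Clec3b, Dpt, Gsn, Ly6a and Adgre1 were named besides, after their values were seen. Mbp, Sox9, Rgs5, Notch3, Retnlg, Csf3r, S100a8, S100a9, Fn1 and Col5a3 were likewise named after their values were seen. The scripts were tested on simulated data. DESeq2 1.42.0, limma 3.58.1 (voom with library quality weights), TMM factors, other filters, left-out libraries, a replicate block and a parotid covariate were tried. Positions are from GENCODE vM21 and promoter sequences from RefSeq, GRCm38.p6. The p-values measure only the spread between these libraries. Reads were not analysed here.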

Additional observations from a re-analysis of the deposited data

Results flagged for a closer look

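Over the 40 members with counts, 74 groups of 4 libraries were checked for 1 library far from the other 3, and 14 were singled out, all in members with too few counts to be tested. Chance singles out about 1 group in 20 of continuous values, but in 13 of the 14 the other 3 libraries held 0, where even 1 count meets the criterion, so that rate does not apply to them. In AL, replicate 2 held Mmp16 at 0.0613 CPM and Mmp17 at 0.306 CPM, replicate 3 held Adamts3 at 0.364 CPM and replicate 4 held Adamts6 at 0.0507 CPM. In CR replicate 1 these were Timp1 at 0.141 CPM, Adamts6 at 0.424 CPM and Adamts18 at 0.0707 CPM. In CR replicate 3 these were Adamts17 at 0.618 CPM, the exception, with 0.0555 CPM in replicate 4, and Mmp20 at 0.371, Mmp17 at 0.309, Mmp21 at 0.124 and Adamts8 at 0.0618 CPM. In CR replicate 4 these were Adamts9 at 0.610 CPM and Mmp25 at 0.0555 CPM.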

How the results depend on the processing

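Members called lower numbered 2 with edgeR, 5 with DESeq2, 5 with a replicate block (Mmp12, Adamts15 and Mmp9 besides, at adjusted p of 0.0127, 0.0117 and 0.0477), 4 without the filter on low counts, 4 without AL replicate 4 and CR replicate 4 together (chosen after seeing the data), and 0 with the parotid covariate. Leaving out each library gave 0 to 4. None was called when AL replicate 1, 2 or 3 was left out, or CR replicate 2 or 3, and 4 without CR replicate 4. Members called higher were 0 in every alternative run. Members at an unadjusted p under 0.05 numbered 9, 5 with the parotid covariate, and 5 to 10 with a library left out, the 5 without AL replicate 2 and without CR replicate 2. Over all tested genes, DESeq2 called 385 higher and 317 lower, the block 388 and 312, and the parotid covariate 4 and 0. That covariate did not overlap between the diets, so its fit cannot separate it from diet. Calls over all genes moved likewise with the libraries, from 88 lower to 247 without CR replicate 4, 243 without both replicates 4, and 25 to 38 in the 5 fits in which no member was called.

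Adamtsl1 turned to -0.46, Mmp19 to 0.705 and Adamts1 to 1.205 with the parotid covariate. Adamts1 was also at 0.302, 0.105 and 0.0285 without AL replicate 2, CR replicate 2 and CR replicate 4 (range -0.451 to 0.302 over the left-out libraries), and at 0.0442 without both replicates 4. Mmp14 turned to 0.0827 without AL replicate 3 (range -0.279 to 0.0827 over the left-out libraries), and Mmp2 to -0.0942 without AL replicate 1 (range -0.0942 to 0.308). The other named tested members kept their direction in every alternative run. The cause of these changes was not tested. Libraries of both diets with the same replicate number correlated at 0.13, 0.07, 0.22 and 0.43 in their deviations from the diet means, and not every correlation passed 0.1, so the numbers were not treated as pairs. AL replicates 1, 2 and 4 correlated best with the CR library of their own number and AL replicate 3 with CR replicate 1. Depth limits the untested members, which had at most 66 counts each.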
